A study of Mus with 18 samples.

Results

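Heat-shock proteins and chaperones were followed here through 10 mouse genes, chosen by symbol. No rule on measured values was used, but earlier results of these data were known at the time of choice. They are the inducible HSP70 genes Hspa1a and Hspa1b, the constitutive HSP70 gene Hspa8, the HSP110 gene Hsph1, the small heat-shock protein genes Hspb1 and Cryab, the cytosolic HSP90 genes Hsp90aa1 and Hsp90ab1, and the J-domain protein genes Dnaja1 and Dnajb1. All 10 were listed among the 21401 gene symbols of each experiment. RNA was sequenced in 18 libraries, 9 from cells labelled C2C12 and 9 from muscle, and the levels are FPKM values, which are read counts scaled for transcript length and for sequencing depth. C2C12 is an established line of mouse myoblasts, the precursors that fuse into muscle fibres, and it was labelled wild type. The cells received vehicle (control), lipopolysaccharide (LPS, a bacterial cell wall component that triggers inflammation) at 1 μg/mL, or the same LPS with moringa isothiocyanate-1 (MIC-1, a compound from moringa seeds) for 24 h. The labels give 10 μM MIC-1, whereas the text of the study names a lower concentration for the sequenced cells and its methods a range that reaches that of the labels. The labels call both controls saline vehicle, but the methods name ethanol as the vehicle of the cells. A figure legend of the study names DMSO for the control mice. The muscle was gastrocnemius of wild-type male C57BL/6 mice that received vehicle, an intraperitoneal LPS injection of 10 mg/kg, or the same injection after 3 days of MIC-1 by gavage at 80 mg/kg in 10% DMSO. The tissue was taken 16 h after LPS, and the ages of the mice were not given in the sources used here. Each group had 3 libraries. Neither the labels nor the methods tie a library to one animal or culture, so the p-values measure the spread between these libraries.

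Chaperones bind unfolded or partly folded proteins and keep them from clumping. HSP70 proteins work in cycles driven by ATP: a J-domain protein delivers the client and starts ATP hydrolysis, and an exchange factor such as an HSP110 releases it. HSP90 takes over selected clients, among them kinases and steroid receptors, whereas small heat-shock proteins hold clients without ATP. In stressed cells the heat-shock factor HSF1 raises transcription of the inducible members, while Hspa8 and Hsp90ab1 are made in most cells at all times. In muscle, small heat-shock proteins such as HSPB1 and αB-crystallin (the product of Cryab) are abundant and bind the contractile and intermediate filaments.

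The labelled cell types were checked against marker genes before the chaperones were compared. The libraries labelled C2C12 control and C2C12 LPS carried macrophage rather than muscle markers. The summed level of 12 macrophage markers ran from 10265 to 10312 FPKM in control, from 5744 to 5927 FPKM in LPS and from 2.82 to 155 FPKM in LPS-MIC-1, where replicate 1 was the highest. The summed level of 10 myogenic markers was 1.08 to 1.57 FPKM in control, 2.08 to 4.58 FPKM in LPS and 1025 to 1285 FPKM in LPS-MIC-1, and Myf5 and Vgll2 were listed at 0 in all control and LPS libraries. Of the 9 C2C12 libraries, those labelled LPS-MIC-1 therefore showed, and the other 6 barely showed, the markers of the labelled cell type. Group names below are those of the labels. In C2C12, treatment and the difference in markers cannot be told apart, and no comparison with LPS-MIC-1 remains without these libraries.

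All 9 muscle libraries carried muscle fibre markers, with summed levels of 14 genes between 184417 and 248344 FPKM. The genes known to answer to LPS were low in the libraries labelled LPS, where 19 such genes summed to 82.5 to 84.9 FPKM, against 64.1 to 66.3 FPKM in control and 8258 to 9299 FPKM in LPS-MIC-1. Of 15 tested, 3 rose and 2 fell between LPS and control, against 0.654% of all genes higher and 0.591% lower, and 15 rose between LPS-MIC-1 and LPS, against 9.67%. Of these 15, 6 averaged under 1 FPKM in control and in LPS and were tested only through LPS-MIC-1, where they had to be higher. Without them, 2 of 9 rose and 2 fell in the first comparison and 9 of 9 rose in the second. The shares of all genes were not reduced in the same way. Lcn2, 1 of the 6, encodes the siderophore-binding protein lipocalin-2 and averaged 0.516 FPKM in control, 0.972 FPKM in LPS and 1248 FPKM in LPS-MIC-1. The libraries labelled LPS thus showed little of the known response and those labelled LPS-MIC-1 showed it strongly, and the part of this difference in the chaperone values was not tested. The summed macrophage markers were 193 FPKM in LPS-MIC-1 replicate 3 and at most 38.2 FPKM in the other muscle libraries. The 10 neutrophil markers summed to 1.73 to 2.74 FPKM in control, 1.76 to 2.02 FPKM in LPS and 14.4 to 20.0 FPKM in LPS-MIC-1. Elane was listed at 0 in all muscle libraries, and Ltf, Ngp and Csf3r in those of control and LPS. Myogenic markers summed to 4461 to 4529 FPKM in control, 5688 to 5778 FPKM in LPS and 2861 to 3105 FPKM in LPS-MIC-1. That sum followed Actc1, which averaged 2834, 4057 and 1140 FPKM, whereas Des averaged 1607, 1590 and 1788 FPKM. Between LPS-MIC-1 and LPS, 2 of 9 myogenic genes tested were called lower and 0 higher, against 5.44% and 9.67% of all genes. Their median log2 difference was -0.10. Endothelial markers summed highest in control, at 131 to 134 FPKM, with 84.3 to 88.4 FPKM in LPS and 107 to 116 FPKM in LPS-MIC-1. The higher sum in LPS-MIC-1 than in LPS followed Cldn5, which averaged 5.64 FPKM in LPS and 31.5 FPKM in LPS-MIC-1. Other endothelial genes moved both ways: Tie1 went from 9.33 to 14.5 FPKM and Kdr from 5.07 to 2.59 FPKM. Between these groups, 1 of 7 endothelial genes tested was called higher and 0 lower, with a median log2 difference of 0.21. The part of these markers in the chaperone values was not tested. In whole muscle, fewer cells of a type and less RNA per cell cannot be told apart.

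**Figure D1:**
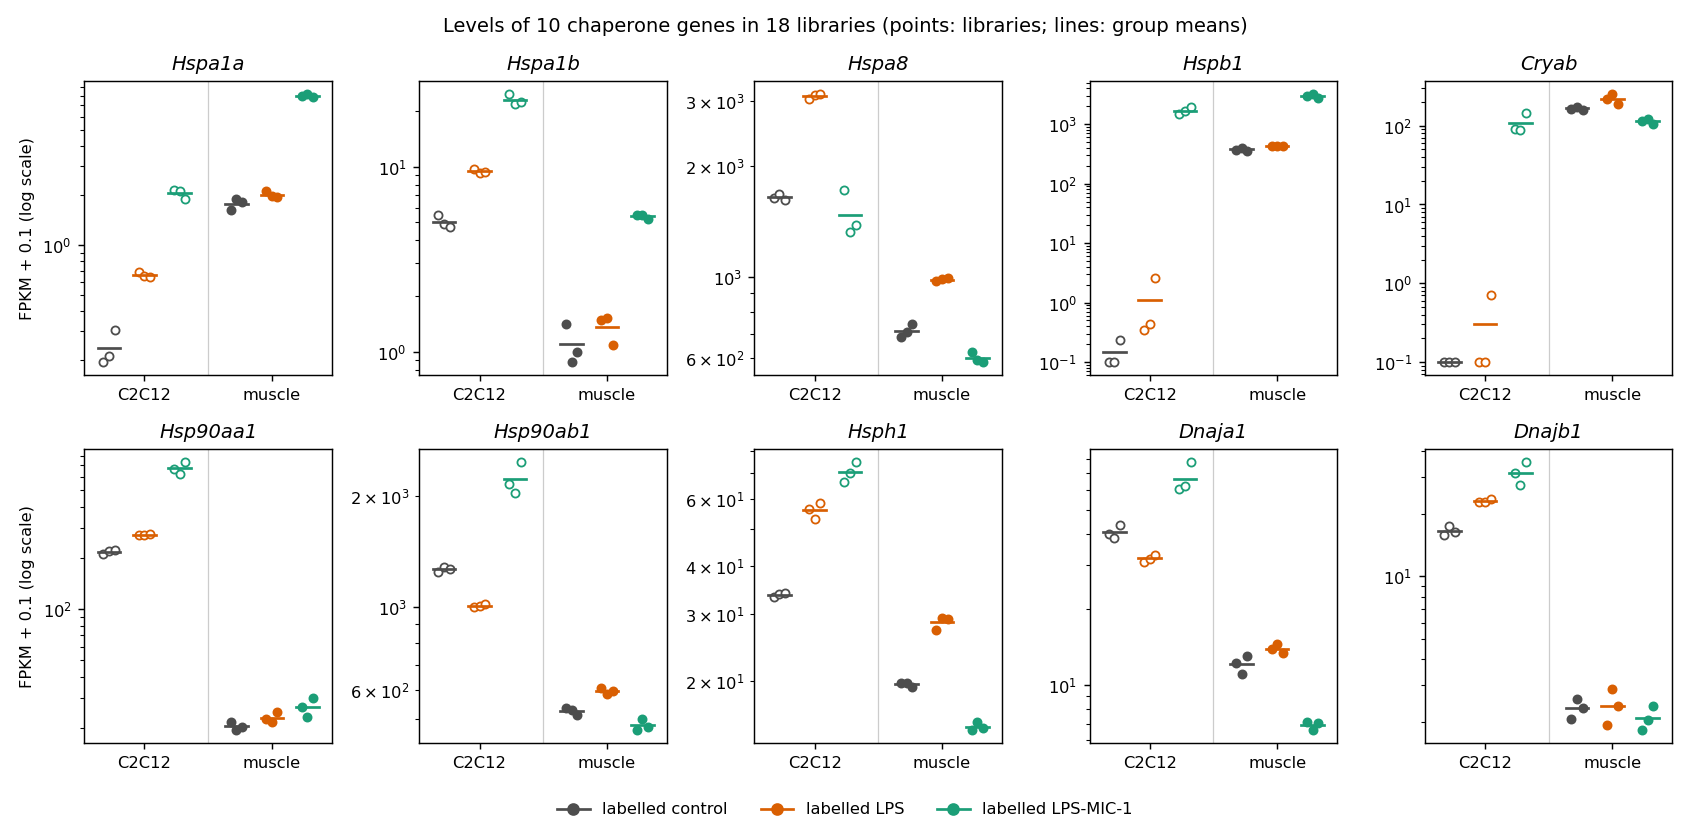
FPKM + 0.1 of each gene on a log scale, by experiment and labelled group (open points, C2C12 libraries; filled points, muscle libraries; lines, means of 3 libraries). In muscle, Hspa1a, Hspa1b and Hspb1 stand highest in LPS-MIC-1, whereas Cryab, Hspa8, Hsph1, Hsp90ab1 and Dnaja1 stand lowest there (for Hsp90ab1 against control, not with FPKM rescaled to one total per library).

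In muscle, the 10 genes moved apart under the LPS-MIC-1 label. Against LPS, Hspb1 rose 6.89-fold, Hspa1a 4.13-fold and Hspa1b 4.21-fold, and Dnaja1 fell to 0.492 of its LPS level. Differences were tested with limma on log2(FPKM + 0.1) over all genes with a mean above 1 FPKM, and a gene was called when its absolute log2 fold change was over 1 and its Benjamini-Hochberg adjusted p under 0.05 (muscle) or 0.001 (C2C12). All 10 genes were tested in muscle, where 4 were called, against 15.1% of the 9475 genes tested, with 3 higher (9.67% of all genes) and 1 lower (5.44%). The other 6 had log2 differences between -0.93 and 0.21, and 4 of these 6 were below LPS with an adjusted p under the threshold. At any fold change, 8 of the 10 passed the adjusted p, against 56.5% of all genes, and for 8 the groups did not overlap, against 64.2%. For LPS-MIC-1 against control, 3 of 10 were called, all higher, against 15.5% of all genes, of which 9.33% were higher and 6.12% lower. At any fold change 9 passed, against 58.5%, and 9 did not overlap, against 64.6%. The comparison of LPS with control gave no called member, against 1.25% of all genes (0.654% higher and 0.591% lower), and at an unadjusted p under 0.05 with the same fold change threshold the count was also 0. At any fold change 5 members passed, all higher in LPS, against 15.7% of all genes, and 7 did not overlap, against 36.5%. Of the 5, Hspb1 and Cryab did not hold throughout when single libraries were left out. Their limma adjusted p then reached 0.126 and 0.0883.

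The small heat-shock protein gene Hspb1 carried the largest change of the 10 in muscle, against LPS and against control. Its levels were 374, 399 and 358 FPKM in control, 437, 433 and 425 FPKM in LPS, and 2985, 3170 and 2765 FPKM in LPS-MIC-1. Every LPS-MIC-1 library thus lay more than 6 times above every LPS library, and the LPS libraries lay above all control libraries without reaching the fold change threshold. The log2 difference between LPS-MIC-1 and LPS was 2.78 (SE 0.0547, adjusted p = 3.59e-09). Between LPS and control it was 0.20 (adjusted p = 0.0452, and up to 0.126 when single libraries were left out). By group mean, Hspb1 was the 186th most abundant of 21401 genes in control, the 166th in LPS and the 24th in LPS-MIC-1.

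Cryab, the closest relative of Hspb1 among the 10, stood the other way. Cryab measured 165, 172 and 160 FPKM in control, 216, 250 and 187 FPKM in LPS, and 115, 121 and 107 FPKM in LPS-MIC-1. None of the 3 groups overlapped another. The log2 difference between LPS-MIC-1 and LPS was -0.93 (95% interval -1.15 to -0.71, adjusted p = 6.57e-05), short of the fold change threshold. Without LPS replicate 3 it was -1.03, which would be called. The ratio of Hspb1 to Cryab was 2.27 ± 0.0401 in control, 2.01 ± 0.265 for LPS and 26.1 ± 0.170 for LPS-MIC-1 (SD, n = 3).

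The inducible HSP70 genes rose together from a low level. Hspa1a was at 1.52, 1.79 and 1.73 FPKM in control, 2.01, 1.88 and 1.86 FPKM in LPS, and 7.86, 8.06 and 7.82 FPKM in LPS-MIC-1. Hspa1b was at 1.32, 0.780 and 0.902 FPKM in control, 1.38, 1.42 and 0.982 FPKM in LPS, and 5.40, 5.37 and 5.14 FPKM in LPS-MIC-1. For both genes all LPS-MIC-1 libraries lay above the other 6, while for Hspa1b the control and LPS libraries overlapped. The log2 difference from LPS was 1.99 for Hspa1a (SE 0.0874, adjusted p = 3.80e-07). For Hspa1b it was 2.01 (SE 0.205, adjusted p = 5.94e-05). These genes are near-identical copies that lie side by side on chromosome 17 in the RefSeq gene order of GRCm38.p6, so how reads were divided between them is uncertain. Hspa1a made up 63.0% ± 8.38 of the pair in control, 60.6% ± 4.37 for LPS and 59.9% ± 0.548 for LPS-MIC-1 (SD, n = 3).

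The constitutive HSP70 gene and its HSP110 partner stood lower in LPS-MIC-1 and higher in LPS. Hspa8 was at 685, 708 and 745 FPKM in control, 971, 985 and 989 FPKM in LPS, and 623, 592 and 586 FPKM in LPS-MIC-1. Hsph1, an exchange factor for HSP70, was at 19.7, 19.7 and 19.2 FPKM in control, 27.1, 29.2 and 29.0 FPKM in LPS, and 14.8, 15.6 and 15.0 FPKM in LPS-MIC-1. Neither gene had overlapping groups in any of the 3 comparisons. For LPS against control, the log2 difference was 0.46 for Hspa8 (adjusted p = 0.000131) and 0.54 for Hsph1 (adjusted p = 0.000142). Against LPS, the LPS-MIC-1 libraries differed by -0.71 for Hspa8 (adjusted p = 9.68e-07) and by -0.90 for Hsph1 (adjusted p = 6.19e-07). After quantile normalization the last was -1.01, which would be called. These 4 differences passed the adjusted p and not the fold change threshold, and both LPS-MIC-1 differences were calculated from the same LPS libraries as the first pair.

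Neither HSP90 gene was called in muscle. Hsp90ab1, the constitutive form, was at 536, 527 and 513 FPKM in control, 605, 583 and 595 FPKM in LPS, and 467, 500.4 and 477 FPKM in LPS-MIC-1. Hsp90aa1, the inducible form, was at 21.7, 19.4 and 20.3 FPKM in control, 22.3, 21.5 and 24.7 FPKM in LPS, and 26.6, 23.2 and 29.8 FPKM in LPS-MIC-1. The Hsp90ab1 groups did not overlap and the Hsp90aa1 groups of LPS and LPS-MIC-1 did. Between LPS-MIC-1 and LPS, the log2 difference was -0.30 for Hsp90ab1 (adjusted p = 7.90e-05). It was 0.21 for Hsp90aa1 (95% interval -0.01 to 0.43, adjusted p = 0.0939). Between LPS-MIC-1 and control, Hsp90aa1 differed by 0.37 without overlap (limma adjusted p = 0.0101, up to 0.0905 over the alternatives). Hsp90ab1 differed by -0.13 (limma adjusted p = 0.00974), and by 0.0297 with FPKM rescaled to one total per library. Hsp90aa1 made up 3.74% ± 0.179 of the pair in control, 3.70% ± 0.248 for LPS and 5.23% ± 0.740 for LPS-MIC-1 (SD, n = 3).

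Of the J-domain proteins, which deliver clients to HSP70, Dnaja1 fell and Dnajb1 gave no detectable difference. Dnaja1 was at 12.1, 10.9 and 12.9 FPKM in control, 13.8, 14.4 and 13.2 FPKM in LPS, and 6.99, 6.50 and 6.93 FPKM in LPS-MIC-1. The LPS-MIC-1 libraries lay below the other 6. The log2 difference from LPS was -1.01 (SE 0.0704, adjusted p = 5.93e-06), barely past the fold change threshold. It was -0.98 without LPS replicate 2 and -0.98 without LPS-MIC-1 replicate 2, so the call was lost without either library. It was also lost with a pseudocount of 1 (-0.93) and with FPKM rescaled to one total per library (-0.89). Dnajb1 was at 1.97, 2.48 and 2.24 FPKM in control, 1.83, 2.78 and 2.29 FPKM in LPS, and 1.73, 1.94 and 2.29 FPKM in LPS-MIC-1. Its 3 groups overlapped. The 95% interval of its log2 difference between LPS-MIC-1 and LPS ran from -0.59 to 0.21.

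**Figure D2:**
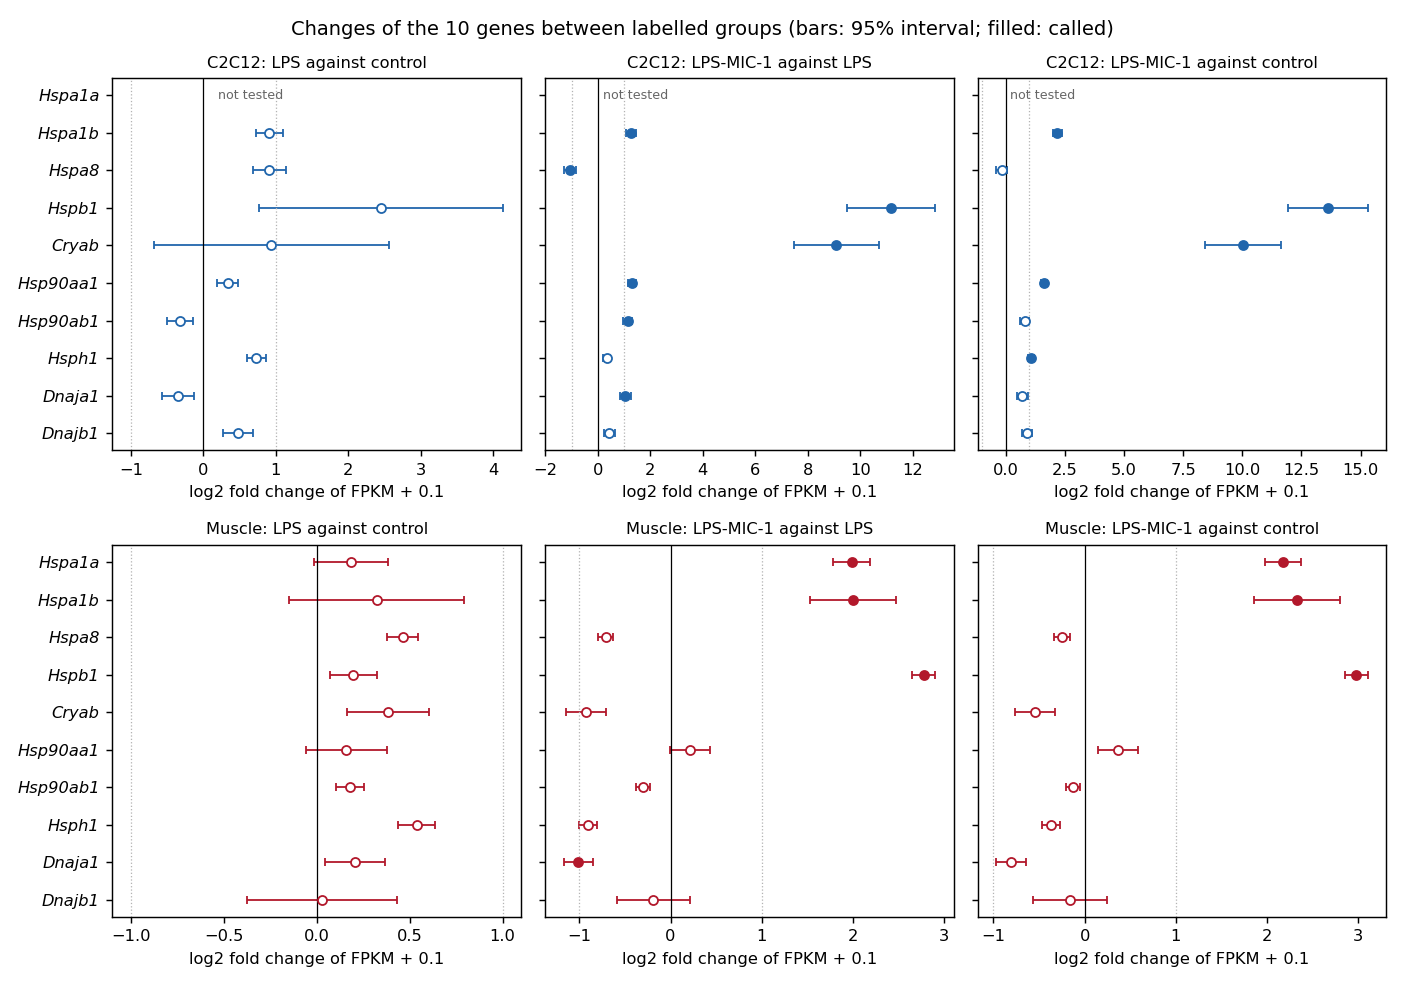
Log2 fold change of FPKM + 0.1 for each gene in 3 comparisons per experiment, with the 95% interval from limma (filled points, called; dotted lines, log2 changes of 1 and -1). In muscle the called genes are Hspa1a, Hspa1b and Hspb1 above and Dnaja1 below, and the x axes differ between panels.

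Counted per length, the 10 genes together gave 1838 ± 21.8 FPKM in muscle control, 2296 ± 27.1 FPKM in LPS and 4232 ± 222 FPKM in LPS-MIC-1 (SD, n = 3). Without Hspb1 the sums were 1461 ± 15.3, 1864 ± 23.0 and 1259 ± 20.4 FPKM, so the other 9 genes summed highest in the LPS libraries and lowest in those of LPS-MIC-1. Hspb1 made up 20.5% of the sum in control, 18.8% for LPS and 70.2% for LPS-MIC-1. Hspa8 made up 38.8% in control, 42.8% for LPS and 14.2% for LPS-MIC-1. As a share of all FPKM in a library, the 10 genes stood at 0.250% in control, 0.319% for LPS and 0.642% for LPS-MIC-1.

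In C2C12, 9 of the 10 genes passed the filter on low values, and Hspa1a did not. Hspb1 and Cryab passed it through the LPS-MIC-1 libraries alone, so their difference there is a description. Between LPS-MIC-1 and LPS, 7 of the 9 tested were called, 6 higher and 1 lower, against 49.9% of the 10877 genes tested, of which 24.3% were higher and 25.6% lower. At any fold change 8 of the 9 passed, against 66.5%, and all 9 did not overlap, against 85.5%. For LPS-MIC-1 against control, 5 of the 9 were called, all higher, against 43.3% of all genes, of which 21.1% were higher and 22.1% lower. At any fold change 8 passed, against 60.5%, and 8 did not overlap, against 83%. LPS against control gave no called member, against 20.9% of all genes (10.9% higher and 10% lower). At an unadjusted limma p under 0.001 with the same fold change threshold the count was also 0. At any fold change 3 passed, all higher, against 37.8%, and 8 did not overlap, against 79.4%. In C2C12 the counts without overlap are near the background share and give no result about the members. Leaving out Hspb1 and Cryab, which had to differ, 5 of 7 were called between LPS-MIC-1 and LPS and 3 of 7 between LPS-MIC-1 and control. The shares of all genes still include genes that passed the filter in the same way. Both comparisons with LPS-MIC-1 set libraries with myogenic markers against libraries with macrophage markers, and the part of that difference in the chaperone values was not tested.

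Hspb1 and Cryab, both abundant in muscle cells, were near or at 0 in the libraries without myogenic markers. Hspb1 was at 0, 0 and 0.135 FPKM in control, 0.245, 0.331 and 2.47 FPKM in LPS, and 1457, 1686 and 1919 FPKM in LPS-MIC-1. Cryab was listed at 0 in all 3 control libraries and in LPS replicates 1 and 2, at 0.606 FPKM in LPS replicate 3, and at 89.7, 87.3 and 145 FPKM in LPS-MIC-1. The log2 difference of Hspb1 between LPS-MIC-1 and LPS was 11.17 with the pseudocount of 0.1 and lay between 9.87 and 12.09 over the alternatives. No fold is given for Cryab against control, where it was listed at 0. Without LPS-MIC-1 replicate 1, which held a trace of macrophage markers, the Hspb1 difference from LPS was 11.28 and the counts of called members stayed at 7 and 5.

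The inducible HSP70 genes ran in the order control, LPS, LPS-MIC-1. Hspa1b was at 5.41, 4.81 and 4.63 FPKM in control, 9.67, 9.19 and 9.30 FPKM in LPS, and 24.5, 21.7 and 22.4 FPKM in LPS-MIC-1, with no overlap between groups. The log2 difference was 0.91 for LPS against control (adjusted p = 2.46e-05) and 1.27 for LPS-MIC-1 against LPS (adjusted p = 1.26e-06). The first fell short of the fold change threshold and the second was called. With FPKM rescaled to one total per library the first was 0.58 (limma adjusted p = 0.00156), which misses the adjusted p of 0.001. Hspa1a was at 0.0954, 0.113 and 0.205 FPKM in control, 0.588, 0.545 and 0.541 FPKM in LPS, and 2.05, 2.01 and 1.81 FPKM in LPS-MIC-1. Hspa1a thus followed the same order at a far lower level, at 2.76% of the pair in control, 5.61% for LPS and 7.89% for LPS-MIC-1. When no filter was applied, its log2 difference between LPS and control was 1.49 (limma adjusted p = 0.000331), which would be called.

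Hspa8 was the most abundant of the 10 in control and LPS. Hspa8 stood at 1640, 1677 and 1619 FPKM in control, 3035, 3110 and 3130 FPKM in LPS, and 1715, 1324 and 1384 FPKM in LPS-MIC-1. The LPS libraries lay above all others, and control and LPS-MIC-1 overlapped. The log2 difference was 0.91 for LPS against control (adjusted p = 8.46e-05), below the fold change threshold, and with FPKM rescaled to one total per library it was 0.57 (adjusted p = 0.00254), which misses the adjusted p as well. For LPS-MIC-1 against LPS it was -1.08 (SE 0.0998, adjusted p = 1.39e-05), and Hspa8 was the only called member that fell in C2C12. Hspa8 made up 51.0% of the summed 10 genes in control, 68.7% for LPS and 23.3% for LPS-MIC-1.

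Hsph1, the HSP110 member, was at 33.1, 33.7 and 33.9 FPKM in control, 56.2, 53.0 and 58.3 FPKM in LPS, and 66.0, 69.9 and 74.5 FPKM in LPS-MIC-1. It rose between control and LPS-MIC-1 by 1.06 on the log2 scale (adjusted p = 4.76e-07), a call lost after quantile normalization (0.86) and after rescaling to one total (0.69). Between control and LPS the difference was 0.73 (adjusted p = 1.07e-05), and between LPS and LPS-MIC-1 it was 0.33 (adjusted p = 0.000638). The last missed the adjusted p after quantile normalization (0.15, adjusted p = 0.0101). Hsph1 thus stood lowest in control and highest in LPS-MIC-1, with no overlap between groups.

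Both HSP90 genes rose between LPS and LPS-MIC-1. Hsp90aa1 was at 211, 219 and 223 FPKM in control, 273, 272 and 276 FPKM in LPS, and 663, 623 and 730 FPKM in LPS-MIC-1. Hsp90ab1 was at 1247, 1284 and 1267 FPKM in control, 1004, 1008 and 1020 FPKM in LPS, and 2149, 2034 and 2464 FPKM in LPS-MIC-1. In LPS, Hsp90ab1 lay below control while Hsp90aa1 lay above it, though with FPKM rescaled to one total per library the log2 difference of Hsp90aa1 was -0.0035. On the deposited FPKM neither difference passed the adjusted p of 0.001 (limma adjusted p = 0.00621 for Hsp90ab1 and 0.0015 for Hsp90aa1). The log2 difference between LPS-MIC-1 and LPS was 1.29 for Hsp90aa1 (SE 0.0604, adjusted p = 2.07e-07). For Hsp90ab1 it was 1.13 (SE 0.0769, adjusted p = 2.00e-06). After quantile normalization these were 0.98 and 0.88, and both calls were lost. Hsp90aa1 made up 14.7% of the pair in control, 21.3% for LPS and 23.3% for LPS-MIC-1.

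The J-domain genes differed in their order across groups. Dnaja1 was at 40.0, 38.5 and 43.4 FPKM in control, 30.9, 31.8 and 33.0 FPKM in LPS, and 60.2, 61.9 and 77.3 FPKM in LPS-MIC-1. Dnajb1 was at 15.7, 17.4 and 16.2 FPKM in control, 22.7, 22.5 and 23.5 FPKM in LPS, and 31.3, 27.2 and 35.1 FPKM in LPS-MIC-1. Dnaja1 stood lowest in LPS, as Hsp90ab1 did, whereas Dnajb1 stood lowest in control. Between LPS and control, neither J-domain gene passed the adjusted p of 0.001 on the deposited FPKM (limma adjusted p = 0.0135 for Dnaja1 and 0.00194 for Dnajb1). Dnaja1 rose between LPS and LPS-MIC-1 by 1.05 on the log2 scale (SE 0.0966, adjusted p = 1.35e-05). Without LPS-MIC-1 replicate 3 that difference was 0.93, after quantile normalization it was 0.92, and the call was lost in both. For Dnajb1 the same difference was 0.44 (adjusted p = 0.00205), which did not pass the threshold used in C2C12.

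**Figure D3:**
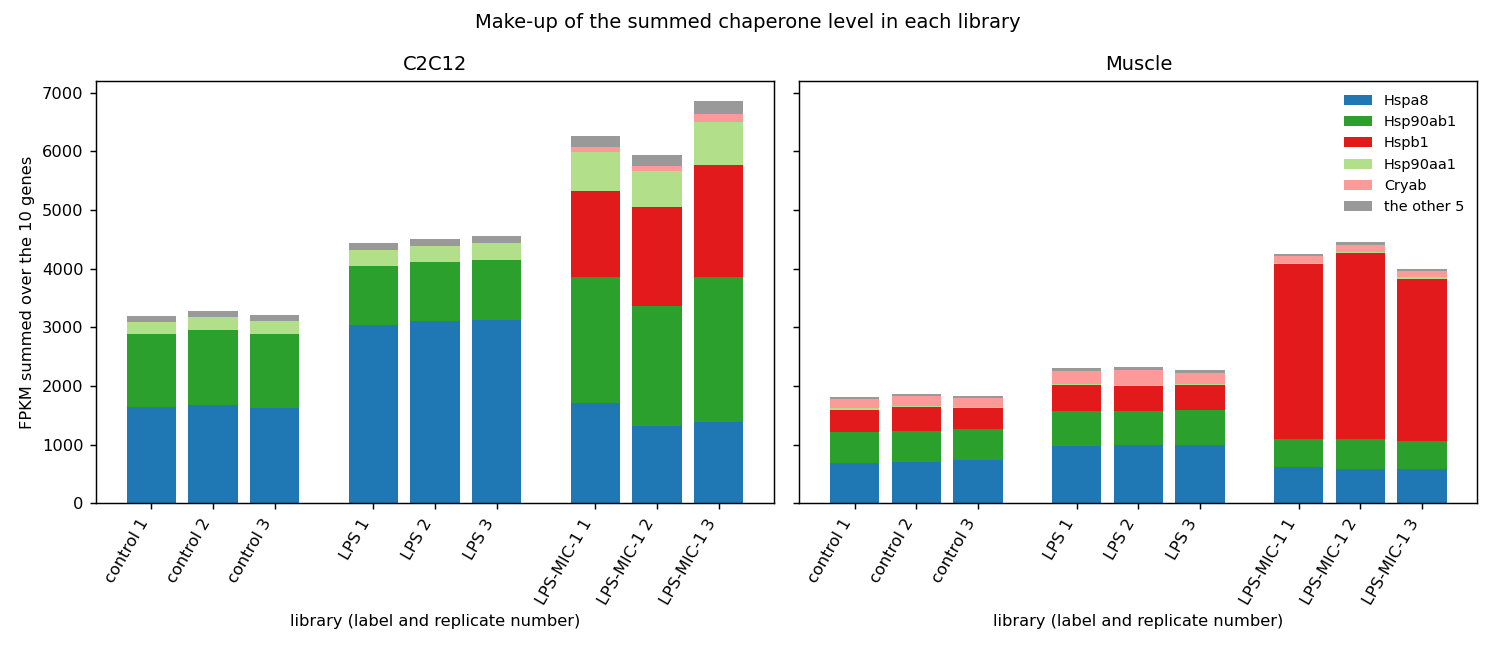
FPKM summed over the 10 genes in each library, stacked by gene (left, C2C12; right, muscle; x axis, label and replicate number). Hspb1 takes most of the summed level in the muscle LPS-MIC-1 libraries and is close to absent from the C2C12 control and LPS libraries.

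Levels were then set side by side across the experiments, whose values were normalized separately, so no test was made between them. In control, Hspa8 and Hsp90ab1 were the top pair in both experiments. Next came Hspb1 in muscle, at 377 FPKM, and Hsp90aa1 in C2C12, at 217 FPKM. In LPS-MIC-1 the leading gene was Hspb1 in muscle, at 2973 FPKM, and Hsp90ab1 in C2C12, at 2216 FPKM. Hspb1 came next in C2C12 LPS-MIC-1, at 1687 FPKM, ahead of Hspa8 at 1474 FPKM. Dnajb1 was the least abundant member in muscle LPS-MIC-1, at 1.99 FPKM, and Hspa1a the least abundant in C2C12 LPS-MIC-1.

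Other genes of the chaperone system were taken from lists of 67 genes, which leave out the 10. In muscle, 61 were tested, and between LPS-MIC-1 and LPS 5 were called, all higher, against 15.1% of all genes called, 9.67% higher and 5.44% lower. The median log2 difference of the 61 was -0.18, against -0.01 for all genes tested. Fkbp5, an HSP90 cochaperone that binds steroid receptors, rose from 11.0 FPKM in LPS to 94.2 FPKM (log2 difference 3.08, adjusted p = 1.03e-08). Hspb7, a small heat-shock protein of heart and skeletal muscle, rose from 57.5 to 456 FPKM (log2 difference 2.99). Bag3, an exchange factor that joins HSP70 to small heat-shock proteins, rose from 56.7 to 124 FPKM (log2 difference 1.13). Dnajb9 and Dnajb6 were the other called genes. The HSP90, small heat-shock and exchange factor lists held 1 of the called genes each and the J-domain list 2, and differences between lists were not tested.

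For LPS-MIC-1 against control in muscle, 6 of the 61 rose and 2 fell, against 9.33% of all genes higher and 6.12% lower, so the first share is near that of all genes. The largest rises were of Hspb7 (log2 difference 3.96), Fkbp5 (3.82) and Dnajb9 (1.64). Those that fell were Hspa12b (-1.29), an HSP70-like gene of endothelium, and Hspbp1 (-1.03), an HSP70 exchange factor. Between LPS and control none of the 61 was called by limma, against 1.25% of all genes. Hsf2, a heat-shock factor, averaged 7.63 FPKM in control, 8.95 FPKM in LPS and 17.5 FPKM in LPS-MIC-1, and rose against control (log2 difference 1.18, adjusted p = 2.56e-06). Hsf1 averaged 3.32, 3.93 and 1.74 FPKM, and its log2 difference between LPS-MIC-1 and LPS was -1.38 (adjusted p = 0.0541), which did not pass.

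In C2C12, 59 of the 67 were tested. Between LPS and control, 6 rose and 5 fell, against 10.9% of all genes higher and 10% lower, so both shares are near those of all genes. Hspa5, the HSP70 of the endoplasmic reticulum, went from 365 FPKM in control to 2606 FPKM in LPS (log2 difference 2.83). Hspa4l and Dnajb9, the latter a J-domain protein of the same compartment, rose by 2.79 and 2.13. Those that fell most were Bag2 (-1.38), Fkbp4 (-1.31) and Hspd1 (-1.30), an exchange factor, an HSP90 cochaperone and the mitochondrial chaperonin. Between LPS-MIC-1 and LPS, 23 rose and 3 fell, against 24.3% of all genes higher and 25.6% lower, and the median log2 difference was 0.52 against -0.05 for all genes. Hspb2, Hspb8 and Dnaja4 averaged under 1 FPKM in control and in LPS and were tested only through LPS-MIC-1, where they had to be higher. Without them, 20 of 56 rose and 3 fell. The shares of all genes in this paragraph still include genes that passed only in that way, so they are not matched to the 56. By list, 7 of 13 HSP90 relatives and cochaperones, 5 of 10 chaperonins and 4 of 9 HSP70 exchange factors rose, against the same 24.3%. Of the HSP70 and HSP110 relatives, 2 of 9 rose and 2 fell. Of the J-domain proteins, 1 of 11 rose and 1 fell, and without Dnaja4 0 of 10 rose. Small heat-shock relatives rose in 3 of 4 (1 of 2 without Hspb2 and Hspb8) and heat-shock factors in 1 of 3. Differences between lists were not tested. The 3 that fell were Hspa5 (-2.33), Dnajb9 (-2.07) and Hspa4l, just past the fold change threshold, the same genes that led the rise in LPS, and both comparisons use the LPS libraries. Hspb2 and Hspb8, small heat-shock genes of muscle, stood at 50.0 and 63.5 FPKM in LPS-MIC-1. Hspb2 was listed at 0 in all control and LPS libraries, so no fold is given. Hspb2 is the neighbour of Cryab on chromosome 9 in the RefSeq gene order. Between LPS-MIC-1 and control, 16 rose and 2 fell, against 21.1% of all genes higher and 22.1% lower, and without the 3 genes tested only through LPS-MIC-1, 13 of 56 rose, near the share of all genes. Those that fell were Bag2 (-2.01) and Dnajc5 (-1.11). Hsf1 averaged 6.49 FPKM in control, 2.75 FPKM in LPS and 13.3 FPKM in LPS-MIC-1, a rise of 2.29 on the log2 scale between the last pair (adjusted p = 3.72e-05).

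**Figure D4:**
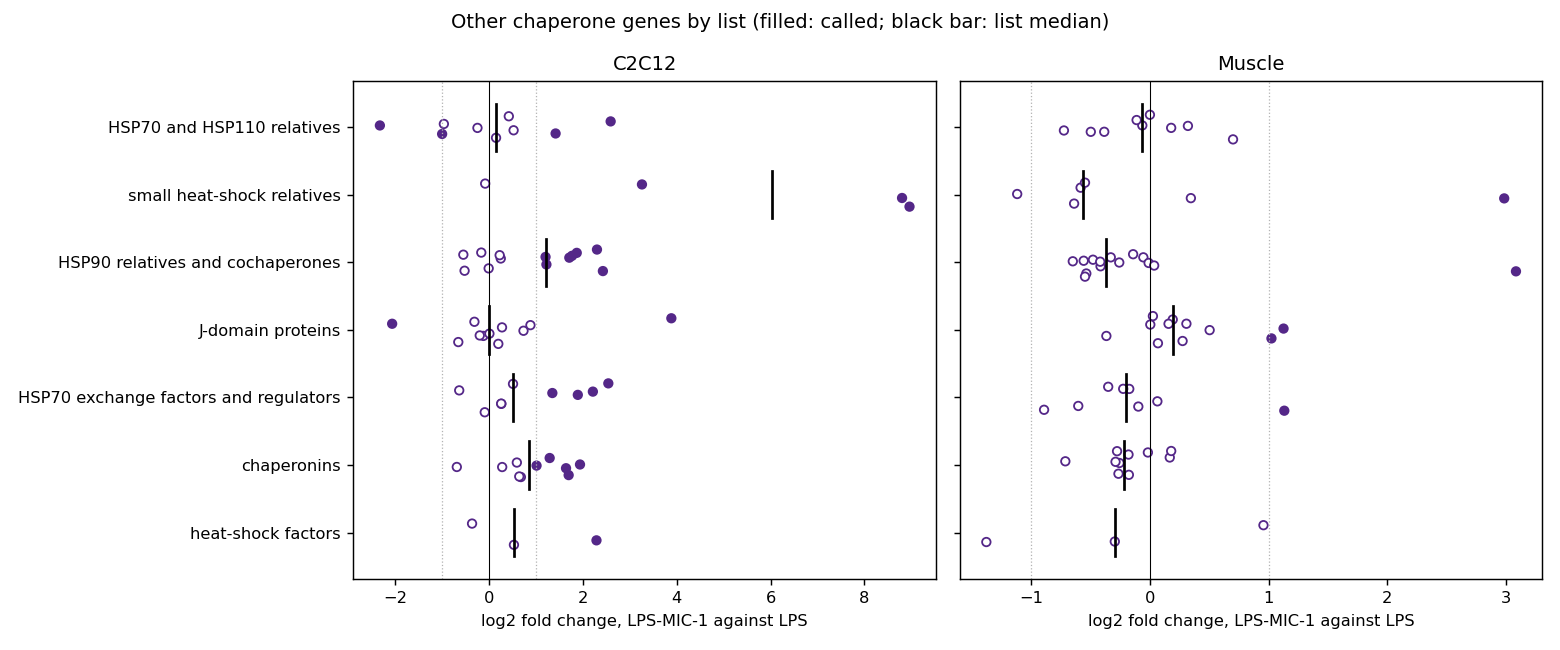
Log2 fold change of the other chaperone genes between LPS-MIC-1 and LPS, by list (filled, called; black bars, list medians; left, C2C12; right, muscle). In muscle the called genes are single points at the right, 5 of 61, while in C2C12 they are 26 of 59 and the x axes differ.

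How the 10 genes varied together was described by Pearson's r of log2(FPKM + 0.1) over the 9 libraries of an experiment, which share 3 group levels, so no p is given. In muscle they fell into sets. Hspa1a and Hspb1 had an r of 0.998, and Hspa8 and Hsph1 an r of 0.983. Hsp90ab1 ran with Hsph1 (r = 0.971), whereas Hspb1 ran against Dnaja1 (r = -0.960) and against Cryab (r = -0.843). Of the 45 pairs, 21 had a positive r. In C2C12, 29 of 36 pairs were positive, Hspb1 and Cryab had an r of 0.993, and Hsp90ab1 and Dnaja1 an r of 0.989. Hspb1 and Cryab passed the filter in C2C12 through the LPS-MIC-1 libraries alone. The high r between them was thus largely set by the filter, and the pairs they add are a description. Hspa8 stood apart there, with an r of -0.821 against Dnaja1.

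**Figure D5:**
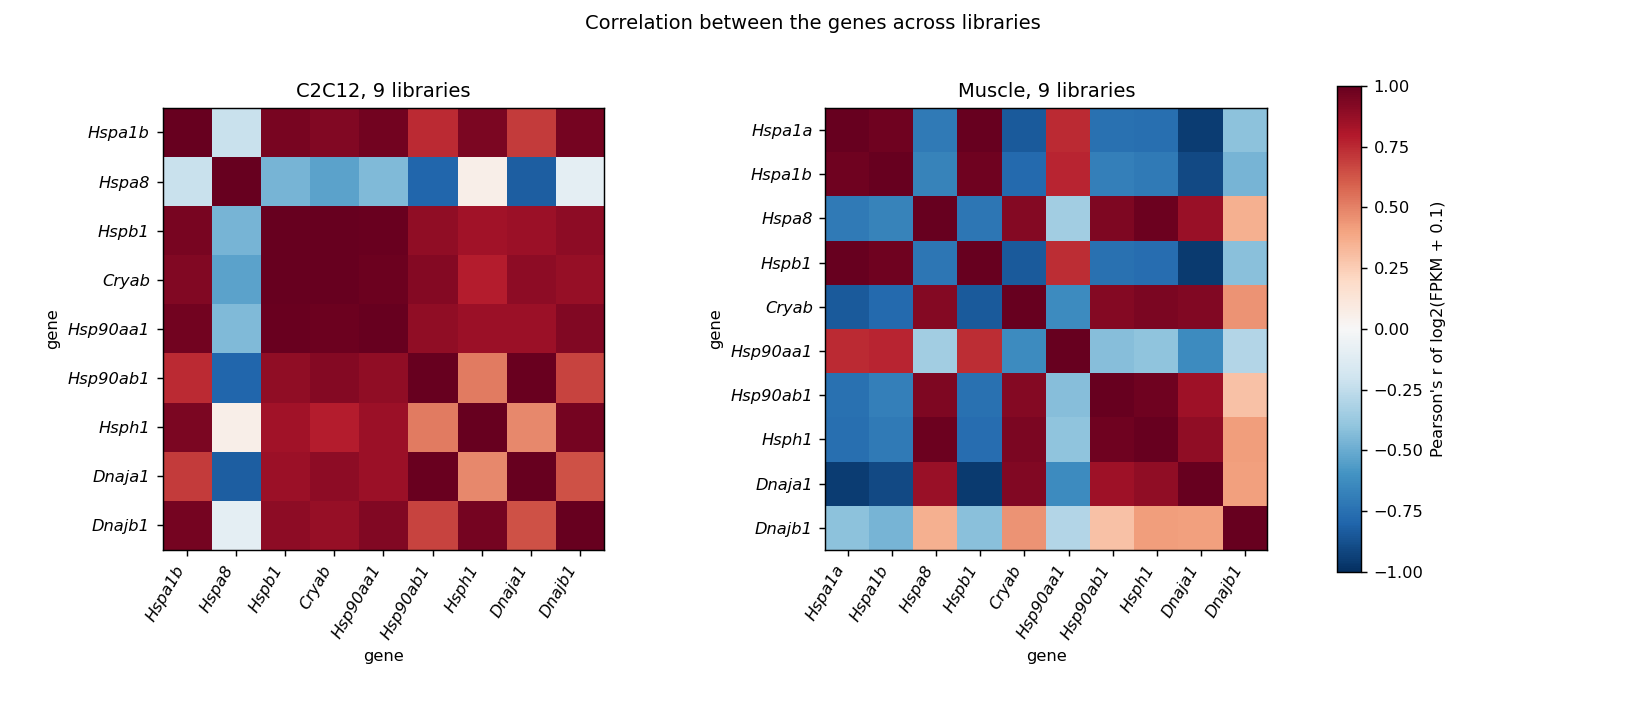
Pearson's r of log2(FPKM + 0.1) between the genes over 9 libraries of each experiment (red, positive; blue, negative; Hspa1a is left out of C2C12 because its mean was under 1 FPKM). In muscle Hspa1a, Hspa1b and Hspb1 form one block and Hspa8, Cryab, Hsp90ab1, Hsph1 and Dnaja1 another, with negative values between the blocks.

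Among all other tested genes, those with the pattern most like that of Hspb1 in muscle were Sgk1 and Acvr1b, each with an r of 0.9995 over 9 libraries. In muscle 981 of 9465 genes had an r over 0.95 with Hspb1, so Sgk1 and Acvr1b are the top of a broad group. Sgk1, a kinase gene, averaged 76.0 FPKM in control, 81.6 FPKM in LPS and 264 FPKM in LPS-MIC-1. The genes most like Hspa1a in muscle were Zfand5 (r = 0.999) and Nup210 (r = 0.998), and 952 of 9465 genes had an r over 0.95 with Hspa1a. For Hsp90aa1 in muscle the nearest were Snrnp40 (r = 0.957) and AI846148 (r = 0.934), and 1 gene had an r over 0.95. In C2C12 the nearest to Hspb1 were Ddah2 and Ccdc24 (r = 0.997 for both), and those nearest to Hsp90aa1 were Lgals1 and Ctnna1 (r = 0.999 for both). In C2C12, 1240 genes had an r over 0.95 with Hspb1 and 1311 with Hsp90aa1, so the nearest genes are the top of a broad group. Hspb1 passed the filter in C2C12 through the LPS-MIC-1 libraries alone, so its r with other genes high there is a description.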

How the data were processed

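The authors quantified RNA from 18 libraries by pseudoalignment in kallisto, collapsed transcripts to genes with tximport, and deposited an FPKM value for every gene in each library. The submitters' processing notes name the build mm9. From the authors' DESeq2 tables only the mean normalized count per gene was read, a signal averaged by the authors over the libraries compared. Their fold changes and p-values were not used, and 1 such table was left out because its means are on another scale. Of 11 unnamed columns in the muscle table, 9 hold per-sample values of unstated samples and were not used.

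Groups came from the labels. Each experiment was fitted apart with limma 3.58.1 in R 4.3.3 on log2(FPKM + 0.1), with 9 libraries, group means and eBayes with a trend, for 10877 genes (C2C12) and 9475 genes (muscle) with a mean above 1 FPKM, with Benjamini-Hochberg adjustment over all of them. Depth per library is unknown. The authors' mean normalized counts of the 10 genes ran from 84.8 for Dnajb1 to 21328 for Hspa8 in the muscle comparison of LPS-MIC-1 with LPS, and from 1.45 for Cryab to 84715 for Hspa8 in the C2C12 comparison of LPS with control. The steps were tested on simulated data. With 3 against 3 libraries an exact permutation test cannot give a p below 0.1.

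Named genes were the 10 members, up to 3 called genes with the largest rise and the largest fall in the other chaperone lists per comparison, both genes most correlated with Hspa1a, Hspb1 and Hsp90aa1, and the top markers. Hsf1, Hsf2 and Dnajb6 were named after their values were seen. The members and lists were chosen with earlier results of these data known. Dnajb5, Cd68, Adgre1, Spi1 and Ly6g are not analysed here. Alternatives are given in the closing section. Python 3.11.15 and matplotlib 3.10.9 drew the figures.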

Additional observations from a re-analysis of the deposited data

Results flagged for a closer look

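In 3 comparisons, genes of the set moved in opposite directions in C2C12 and muscle, with no overlap between the groups in either experiment. The difference between experiments was not tested, and the C2C12 control and LPS libraries lacked myogenic markers. Absence of overlap was common over all genes tested. In the order below, it held for 79.4%, 85.5% and 83% in C2C12 and for 36.5%, 64.2% and 64.6% in muscle. The share of all genes that moved in opposite directions in this way was not counted, so the counts give no result about the members. Values are log2 fold changes, C2C12 first and muscle second.

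For LPS against control there were 2 such genes, Hsp90ab1 (-0.32 and 0.18) and Dnaja1 (-0.35 and 0.21). For LPS-MIC-1 against LPS there were 4, namely Cryab (9.09 and -0.93), Hsp90ab1 (1.13 and -0.30), Hsph1 (0.33 and -0.90) and Dnaja1 (1.05 and -1.01). The same 4 genes stood out for LPS-MIC-1 against control, with Cryab at 10.03 and -0.54, Hsp90ab1 at 0.80 and -0.13, Hsph1 at 1.06 and -0.37, and Dnaja1 at 0.70 and -0.81. Cryab passed the filter in C2C12 through the LPS-MIC-1 libraries alone. Its C2C12 values in both comparisons therefore had to be positive and are a description. With values rescaled to sum to a fixed total per library, Hsp90ab1 in muscle was 0.0297 for LPS-MIC-1 against control, so its direction there depends on the scaling. In C2C12 the same comparison moved with the scaling too, to 0.28 for Hsp90ab1 after quantile normalization and, with the fixed total, to 0.33 for Dnaja1 and 0.69 for Hsph1. With the fixed total, LPS against control in C2C12 was -0.66 for Hsp90ab1 and -0.68 for Dnaja1.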

How the results depend on the processing

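Member values were recomputed under 12 alternatives and without each library in turn. Of 1188 values, 1149 kept their direction and stayed called or not called. An uncalled member that lost only the adjusted p is counted among these. Of the others, 22 passed only because the fold change threshold was dropped, 3 more were newly called, 10 lost the call and 4 reversed. Without that threshold 3 members were called in C2C12 for LPS against control, 8 for LPS-MIC-1 against control, and in muscle 5, 8 and 9 for LPS against control, LPS-MIC-1 against LPS and LPS-MIC-1 against control. With no FPKM filter, and likewise with TPM rescaling (FPKM scaled to one total per library), 1 member (Hspa1a) was called in C2C12 for LPS against control, since the change of scale or filter let it be tested. Quantile normalization left 4 called in C2C12 for LPS-MIC-1 against LPS, and the cause was not tested. A mean over 5 FPKM left 2 and 1 called in muscle for LPS-MIC-1 against LPS and against control, since fewer genes were tested. Without 1 library at a time, the counts were 0 to 0, 6 to 7 and 5 to 6 in C2C12, and 0 to 0, 3 to 5 and 3 to 3 in muscle, in the order LPS against control, LPS-MIC-1 against LPS, LPS-MIC-1 against control.

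Direction reversed in 4 cases. Under TPM rescaling, Hsp90aa1 in C2C12 for LPS against control was -0.0035 and Hsp90ab1 in muscle for LPS-MIC-1 against control was 0.0297. Dnajb1 in muscle for LPS against control was -0.05 without control replicate 1 and -0.11 without LPS replicate 2 (range without 1 library -0.11 to 0.18). TPM rescaling moved the median of all genes to -0.30 and -0.41 in C2C12 (LPS and LPS-MIC-1 against control) and to 0.12 and 0.17 in muscle (LPS-MIC-1 against LPS and against control), and quantile normalization to -0.12 and -0.10 in the same muscle comparisons. The deposited FPKM already shared 1 median-ratio size factor within each experiment, so median-ratio scaling changed no call.

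Over all genes, the call counts changed by over 1.5 times as follows. In C2C12 for LPS against control, 2275 became 4115 with no fold change threshold. In muscle for LPS against control, 118 became 1491 with no fold change threshold, 185 with unadjusted p, 71 with a pseudocount of 1 and 57 with a mean over 5 FPKM. For LPS-MIC-1 against LPS, 1431 became 5356, and 2158 with no filter and 656 with a mean over 5 FPKM. For LPS-MIC-1 against control, 1464 became 5544, 2240 and 677. The split of higher and lower calls moved by over 10 percentage points under TPM rescaling in C2C12, from 1182 and 1093 to 813 and 1908 (LPS against control) and from 2300 and 2408 to 1914 and 3286 (LPS-MIC-1 against control), and in muscle from 884 and 580 to 1269 and 521 (LPS-MIC-1 against control). Quantile normalization moved it in muscle from 916 and 515 to 781 and 667 (LPS-MIC-1 against LPS).

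Replicate numbers gave no clear pairing of the libraries. The correlation of same-numbered deviations ran from -0.0757 to 0.0573 in C2C12 and from -0.054 to 0.0823 in muscle. For unlike numbers it ran from -0.091 to 0.121 in C2C12 and from -0.0745 to 0.0811 in muscle. Between muscle LPS and LPS-MIC-1, same-numbered libraries (0.0823, 0.0626 and 0.0282) lay above all unlike ones (at most 0.00724), and a pairing there was not tested. The best match had the same number in 4 of 18 cases in C2C12 and 10 of 18 in muscle. With a replicate block, member counts were 0, 7 and 5 in C2C12 and 0, 4 and 3 in muscle, and no member call changed.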
